A study of Mus musculus with 6 samples.

Results

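The class IIa histone deacetylases and the other regulators of the transcription factor MEF2 were followed here as 7 genes, chosen by symbol. They are the class IIa deacetylases *Hdac4*, *Hdac5*, *Hdac7* and *Hdac9*, the MEF2 and calcineurin inhibitor *Cabin1*, and the MAP kinases *Mapk7* (ERK5) and *Mapk14* (p38 alpha). All 7 were among the 21667 named genes measured by RNA-Seq in the somatosensory cortex, and all 7 had a read count in every mouse. Between genotypes, *Hdac7* fell by 41.9%, *Hdac9* fell by 41.3%, *Mapk14* fell by 19.5%, and *Hdac4*, *Hdac5*, *Cabin1* and *Mapk7* did not pass the test.

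The RNA came from adult male mice of a mixed SVeV-129; C57BL/6J background, 3 per genotype. Control mice carried the floxed alleles alone (Mef2cfl/fl), and the *Mef2c* cKO mice carried the same alleles with Emx1-Cre (Mef2cfl/fl; Emx1-Cre). Replicate 1 of each genotype was 14 weeks old, and replicates 2 and 3 were 12 weeks old. Emx1-Cre acts from embryonic stages in the lineage that gives forebrain excitatory neurons and some glia, so that inhibitory neurons, microglia and vessel cells of the same tissue keep an intact *Mef2c*. The tissue was not sorted, and for every value below fewer cells of a type and less RNA per cell cannot be told apart.

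Class IIa HDACs bind MEF2 proteins on DNA and hold their target genes in a repressed state. Their own deacetylase activity is weak, and they work with the NCoR and SMRT corepressors and HDAC3. Calcium-activated and other kinases phosphorylate them, 14-3-3 proteins then carry them out of the nucleus, and MEF2 is released to recruit coactivators. In neurons this shuttling follows electrical activity. Cabin1 binds MEF2 and brings the Sin3 corepressor to it, while ERK5 and p38 alpha phosphorylate MEF2 and raise its activity.

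The promoter windows of the 4 deacetylases are shown because MEF2 proteins, the factors that these enzymes repress and of which *Mef2c* is deleted here, bind a known consensus that can be looked for in them. Each runs from 250 bases before the annotated start to 50 bases from it, 5′ to 3′ on the strand of the gene, as given by RefSeq on GRCm38.p6, and of several starts the one furthest upstream is shown. Capitals mark a match to the MEF2 consensus, searched on both strands.
Hdac5, chr11:102230123-102230422, minus strand: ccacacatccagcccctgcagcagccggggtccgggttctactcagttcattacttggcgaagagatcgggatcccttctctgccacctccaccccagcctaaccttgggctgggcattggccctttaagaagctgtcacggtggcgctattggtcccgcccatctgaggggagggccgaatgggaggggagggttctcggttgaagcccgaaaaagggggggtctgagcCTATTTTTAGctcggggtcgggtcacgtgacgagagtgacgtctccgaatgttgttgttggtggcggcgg
Hdac4, chr1:92180292-92180591, minus strand: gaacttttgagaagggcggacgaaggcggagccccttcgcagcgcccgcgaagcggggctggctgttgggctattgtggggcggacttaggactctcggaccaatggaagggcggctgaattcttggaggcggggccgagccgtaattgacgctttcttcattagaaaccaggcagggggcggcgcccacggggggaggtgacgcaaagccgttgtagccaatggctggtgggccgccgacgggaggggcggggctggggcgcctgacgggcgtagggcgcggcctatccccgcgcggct
Hdac7, chr15:97844453-97844752, minus strand: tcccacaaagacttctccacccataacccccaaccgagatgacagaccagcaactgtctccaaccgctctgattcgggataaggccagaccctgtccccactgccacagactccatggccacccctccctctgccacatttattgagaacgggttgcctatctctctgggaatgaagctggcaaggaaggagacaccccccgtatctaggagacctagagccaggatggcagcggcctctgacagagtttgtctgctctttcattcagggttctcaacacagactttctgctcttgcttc
Hdac9, chr12:34917046-34917345, minus strand: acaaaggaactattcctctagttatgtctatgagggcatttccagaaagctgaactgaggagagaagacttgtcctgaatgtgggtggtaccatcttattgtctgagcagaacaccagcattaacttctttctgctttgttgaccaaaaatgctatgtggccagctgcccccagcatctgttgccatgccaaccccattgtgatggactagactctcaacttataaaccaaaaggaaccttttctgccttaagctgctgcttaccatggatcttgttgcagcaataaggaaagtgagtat
*Hdac5* alone of the 7 genes had the consensus, CTATTTTTAG, from base -20 to base -11 before its start. No match was found in the windows of *Hdac4*, *Hdac7*, *Hdac9*, *Cabin1*, *Mapk7* or *Mapk14*, of which *Hdac7* has 4, and *Hdac9*, *Mapk7* and *Mapk14* more than 1. Of 32851 mouse promoters of the same length, 1047 (3.19%) held the consensus. The windows also differed in base composition. GC content was 68.0% with 32 CG pairs in the *Hdac4* window and 60.7% with 18 CG pairs in that of *Hdac5*. The upstream *Hdac7* window had 54.7% GC and 6 CG pairs, and that of *Hdac9* 44.0% and 0, beside medians of 52.7% and 7 over all promoters. This depended on the start chosen for *Hdac7*, whose other windows had 65.7%, 73.7% and 60.7% GC with 35, 31 and 5 CG pairs. The other *Hdac9* window had 45.3% GC and 3 CG pairs. A match is a description of the letters and not a measured binding site.

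The deposited values are RPKM, which are meant as reads scaled to gene length and to library size. The length behind the value of a gene, however, changed from mouse to mouse. Only 65 to 299 different lengths were found per mouse, and unrelated genes shared them, so that they are not the lengths of the genes. The deposited RPKM of *Hdac9* was 2.27, 304 and 0.776 in control replicates 1, 2 and 3. In *Mef2c* cKO replicates 1, 2 and 3 it was 7.94, 1.12 and 9.38. The whole read counts were therefore recovered from each table and divided by the total reads of the mouse, 19326365 to 54128334, to give CPM (counts scaled to library size). In CPM the range of *Hdac9* over the control mice was 1.19-fold. The 7 genes had 397 to 8291 reads per mouse. For 40 of these 42 counts only 1 of the lengths found for that mouse gave a whole number. In control replicate 2 the lengths could not be checked against those of the other mice. For *Hdac9* in control replicate 2 and *Cabin1* in control replicate 3, several lengths gave whole counts and the shortest was taken.

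**Figure D1:**
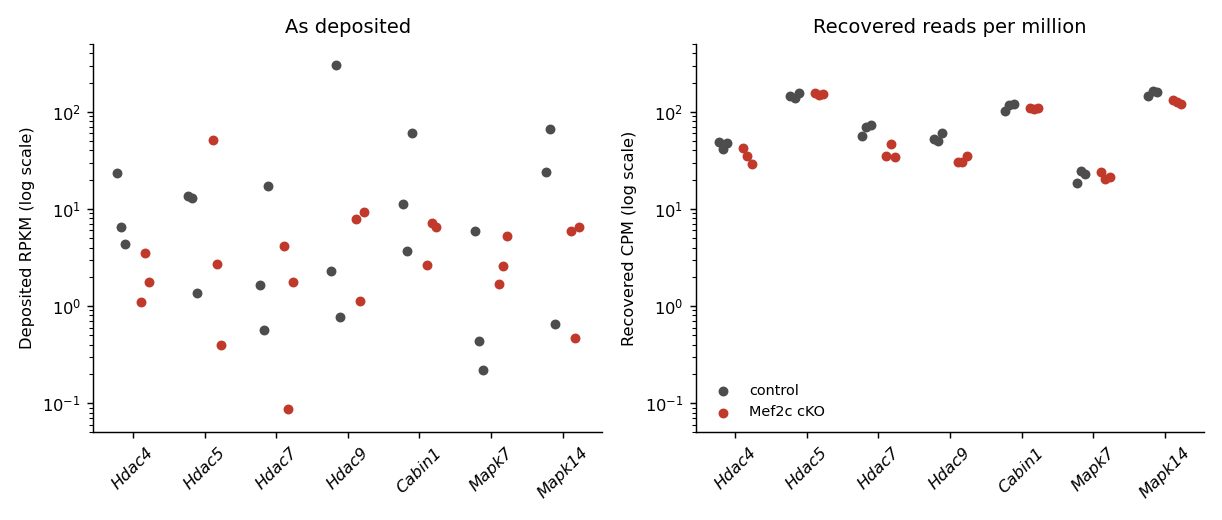
Deposited RPKM (left) and recovered CPM (right) of the 7 genes, on the same log scale. Each point is a mouse, grey for control and red for *Mef2c* cKO, with replicates 1 to 3 from left to right. The *Hdac9* points span 0.776 to 304 in the deposited values of the control mice and 50.5 to 60.0 in CPM.

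The targeted gene *Mef2c* (chromosome 13 of mm9, 83643033 to 83806684, plus strand) had 800.3, 772 and 800.2 CPM in control replicates 1, 2 and 3. In *Mef2c* cKO replicates 1, 2 and 3 it had 1231, 1276 and 1468 CPM, so that every *Mef2c* cKO mouse lay above every control (log2 fold change 0.74, standard error 0.07, limma adjusted p = 2.4e-04). Cre removes the floxed part of the gene only, and the count pools reads over all exons. It therefore does not check the genotype labels, and no direction of *Mef2c* function is drawn from it. Among the other MEF2 genes, *Mef2d* rose from a mean of 139 to 177 CPM (log2 fold change 0.35, standard error 0.05, limma adjusted p = 0.0021). *Mef2a* had means of 88.3 and 98.6 CPM (limma adjusted p = 0.097). The paper, which used DESeq, reports no significant change of either *Mef2a* or *Mef2d*, so the *Mef2d* result here differs from it. *Mef2b* was low, at 3.73 and 4.50 CPM in control replicates 1 and 3, with no count in control replicate 2, and at 4.95, 4.50 and 5.43 CPM in *Mef2c* cKO mice. It overlaps another gene along its whole length on the same strand, which makes its count uncertain.

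Each of the 7 genes was compared between genotypes with limma on log2(CPM + 0.1), adjusted over all 14587 tested genes. A gene was called if it had an adjusted p below 0.05 together with a log2 fold change beyond 0.3 in either direction. By this rule 3 of the 7 genes were called, all 3 with a lower level, where 13.2% of all tested genes were called, 7.53% lower and 5.69% higher. The same 3 were the genes in which every *Mef2c* cKO mouse lay below every control, and in the other 4 the genotypes overlapped. Of all tested genes, 34.9% had no overlap, 18.0% with lower and 16.9% with higher *Mef2c* cKO mice. An exact permutation test of a single gene cannot go below p = 0.10 (two-sided) with 3 mice against 3, and each of the 3 called genes reached that value.

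**Figure D2:**
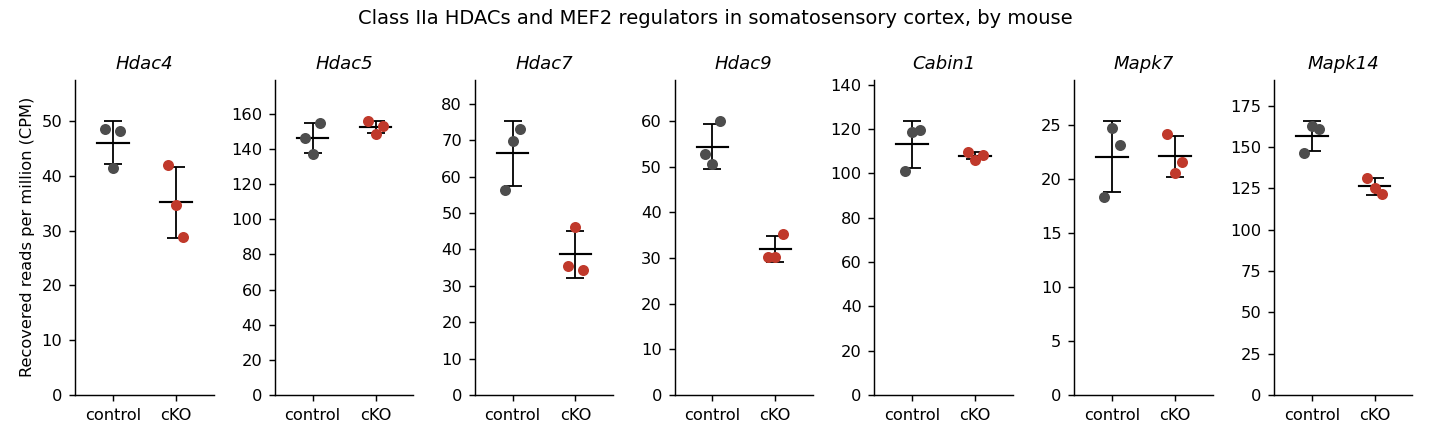
Recovered CPM of each gene in each mouse. Points are mice (grey for control, red for *Mef2c* cKO), and black lines are the mean and SD of 3 mice. The genotypes are apart for *Hdac7*, *Hdac9* and *Mapk14* and overlap for the other 4 genes, with *Hdac5* between 137 and 156 CPM in all 6 mice.

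*Hdac9*, a deacetylase of cortical neurons that is also made as short forms without a catalytic domain, is a minus-strand gene (mm9 chromosome 12, 34732451 to 35213754). It had 52.7, 50.5 and 60.0 CPM in control replicates 1, 2 and 3, and 30.3, 30.2 and 35.2 CPM in *Mef2c* cKO replicates 1, 2 and 3. The highest *Mef2c* cKO mouse was well below the lowest control. The mean fell by 41.3%, from 54.4 ± 5.0 to 31.9 ± 2.9 CPM (SD, n = 3). On the log2 scale the difference was -0.77 ± 0.09 (standard error), with a limma adjusted p of 5.6e-04. Of all tested genes, 5.66% had a larger absolute log2 fold change. With the *Hdac9* count of control replicate 2 left out, this became -0.82 (limma adjusted p = 9.0e-04). Gene counts pool all transcripts, so that the full-length and short forms were not separated.

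*Hdac7* (chromosome 15, 97623095 to 97674933, minus strand) is best known from blood vessels and thymocytes. It had 56.4, 69.8 and 73.2 CPM in control replicates 1, 2 and 3, and 35.4, 46.2 and 34.3 CPM in *Mef2c* cKO replicates 1, 2 and 3. The genotypes did not overlap, though the spread within each was wider than for *Hdac9*. The mean fell by 41.9%, from 66.5 ± 8.9 to 38.6 ± 6.6 CPM (SD, n = 3). On the log2 scale the difference was -0.78 ± 0.13 (standard error), with a limma adjusted p of 0.0039. Endothelial markers are given beside these values, and their part in them was not tested. The 5 endothelial genes with a count in every mouse (*Cldn5*, *Flt1*, *Tek*, *Cdh5* and *Esam*) summed to 160 to 182 CPM in control and 153 to 175 CPM in *Mef2c* cKO mice, with overlap. Limma called 0 of 6 tested endothelial markers (0 of 6 also at an unadjusted p under 0.05), where 13.2% of all tested genes were called. Their log2 fold changes ran from -0.22 (*Tek*) to 0.05 (*Cldn5*).

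*Hdac4* (chromosome 1, 93825362 to 94044970, minus strand), a neuronal deacetylase linked to memory, had lower values that did not pass the test. It had 48.6, 41.5 and 48.2 CPM in control replicates 1, 2 and 3, and 41.9, 34.8 and 28.9 CPM in *Mef2c* cKO replicates 1, 2 and 3. *Mef2c* cKO replicate 1 lay just above control replicate 2, and the means were 46.1 ± 4.0 and 35.2 ± 6.5 CPM (SD, n = 3). The log2 fold change was -0.40, with a 95% interval of -0.69 to -0.11 and a limma adjusted p of 0.072. The call depended on the mice and on the scaling. *Hdac4* was called in 3 of 12 alternatives on recovered counts, with a limma adjusted p of up to 0.137. It was called in 1 of the 6 fits that left out 1 mouse, with a limma adjusted p of up to 0.179. Between the 12-week mice alone it was called at -0.49 (limma adjusted p = 0.047), with age as a term the adjusted p was 0.045, with upper-quartile scaling 0.042, and without *Mef2c* cKO replicate 1 the gene was called at -0.53 (limma adjusted p = 0.016).

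*Hdac5* (chromosome 11, 102055746 to 102091480, minus strand), the class IIa gene with the highest level, was nearly the same in all mice. It had 146, 137 and 155 CPM in control replicates 1, 2 and 3, and 156, 149 and 153 CPM in *Mef2c* cKO replicates 1, 2 and 3. The log2 fold change was 0.06, with a 95% interval of -0.07 to 0.20 (limma adjusted p = 0.55), so that the interval stays inside the cut-off of 0.3 in both directions. This was the gene with the MEF2 consensus in its promoter window.

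**Figure D3:**
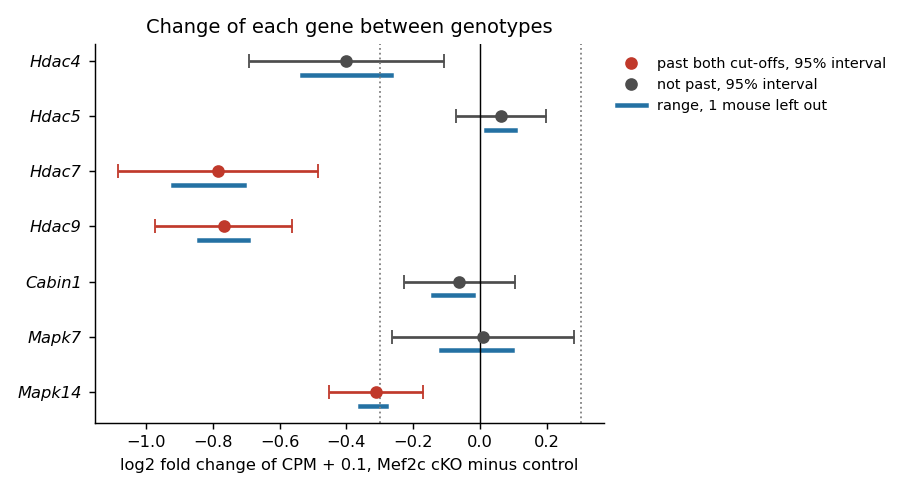
Log2 fold change of CPM + 0.1 (*Mef2c* cKO minus control) of the 7 genes. Points with bars are the limma estimate and its 95% interval, red where both cut-offs were passed, blue lines are the range over 6 fits that each left out 1 mouse, and dotted lines mark the cut-off of 0.3. *Hdac7* (-0.78) and *Hdac9* (-0.77) lie farthest from 0.

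Ratios within a mouse do not depend on the total reads, and they were formed for the 6 pairs of class IIa genes. The lengths of the genes are not in these CPM ratios but cancel in their difference between genotypes. The log2 ratio of *Hdac5* over *Hdac9* was 1.43 ± 0.06 in controls and 2.26 ± 0.13 in *Mef2c* cKO mice (SD, n = 3). The log2 ratio of *Hdac5* over *Hdac7* was 1.14 ± 0.21 and 1.99 ± 0.27 (SD, n = 3). In both pairs the genotypes did not overlap (exact permutation test, two-sided, p = 0.10, the smallest that 3 mice against 3 allow, and 0.20 after adjustment over the 6 pairs). The log2 ratio of *Hdac7* over *Hdac9*, in contrast, was 0.28 ± 0.18 in controls and 0.27 ± 0.33 in *Mef2c* cKO mice (SD, n = 3, exact permutation test, p = 1). *Hdac4* over *Hdac5* was also apart (-1.67 ± 0.07 and -2.13 ± 0.26, SD, n = 3, exact permutation test, p = 0.10), and *Hdac4* over *Hdac7* and over *Hdac9* overlapped between genotypes.

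Levels of different genes were compared per kilobase of annotated exon. On this scale the order in controls was *Mapk14* (35.9 ± 2.1 CPM per kilobase, SD, n = 3), *Hdac5* (16.7 ± 1.0), *Cabin1* (14.3 ± 1.3), *Hdac7* (12.0 ± 1.6), *Hdac4* (7.11 ± 0.61), *Hdac9* (5.66 ± 0.52) and *Mapk7* (5.02 ± 0.75). Of neighbours in this order, *Cabin1* and *Hdac7* overlapped between mice, as did *Hdac9* and *Mapk7*. In *Mef2c* cKO mice *Hdac7* (6.99 ± 1.19 CPM per kilobase, SD, n = 3) and *Hdac4* (5.43 ± 1.01) overlapped between mice, and *Hdac9* (3.32 ± 0.30) lay below *Mapk7* (5.02 ± 0.42) in every mouse. With the longest transcript in place of all exons, *Hdac9* had 5.90 and *Mapk7* 5.21 CPM per kilobase in *Mef2c* cKO mice, and in control mice *Hdac7* had 15.7 and *Cabin1* 15.2, so that both of these orders depend on the length chosen.

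The 4 class IIa genes together made up 39.8, 39.9 and 44.6 CPM per kilobase in control replicates 1, 2 and 3, and 33.8, 33.8 and 31.7 in *Mef2c* cKO replicates 1, 2 and 3. All *Mef2c* cKO mice were below all controls (means 41.4 ± 2.7 and 33.1 ± 1.2 CPM per kilobase, SD, n = 3, exact permutation test, p = 0.10). *Hdac5* made up 41.8%, 39.2% and 39.6% of this sum in the controls and 52.6%, 50.1% and 54.9% in the *Mef2c* cKO mice. The share of *Hdac7* was 29.0% ± 3.1 in controls and 21.1% ± 3.2 in *Mef2c* cKO mice, and that of *Hdac9* 13.6% ± 0.4 and 10.1% ± 1.3 (SD, n = 3). The share of *Hdac4* overlapped (17.2% ± 1.5 and 16.4% ± 2.6, SD, n = 3, exact permutation test, p = 0.70). In every *Mef2c* cKO mouse the other 3 genes together were below *Hdac5*, and in every control they were above it.

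**Figure D4:**
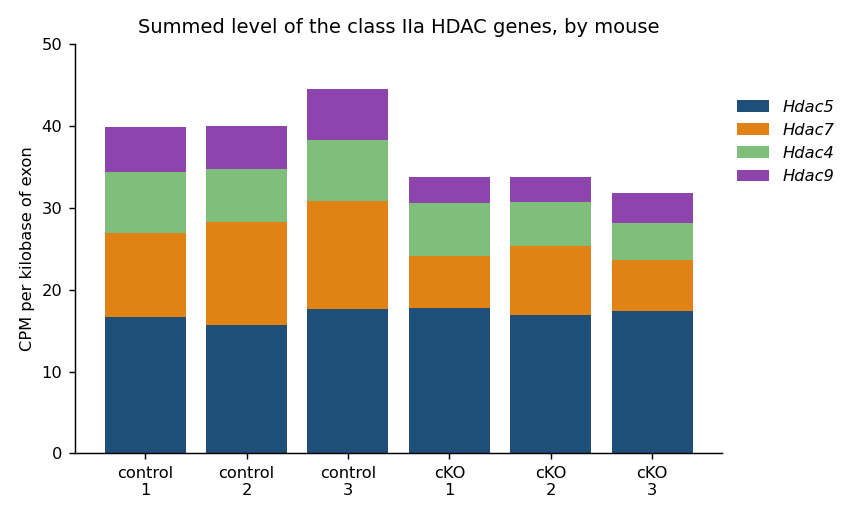
Stacked CPM per kilobase of exon of *Hdac5*, *Hdac7*, *Hdac4* and *Hdac9* in each of the 6 mice, from bottom to top. The *Hdac5* part is of similar height in all mice, and the whole bar is 39.8 to 44.6 in controls and 31.7 to 33.8 in *Mef2c* cKO mice.

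*Mapk14* (chromosome 17, 28828287 to 28885349, plus strand) encodes the stress-activated kinase p38 alpha. It had 146, 163 and 161 CPM in control replicates 1, 2 and 3, and 131, 125 and 122 CPM in *Mef2c* cKO replicates 1, 2 and 3. The genotypes did not overlap, and the spread within each was small. The mean fell by 19.5%, from 157 ± 9 to 126 ± 5 CPM (SD, n = 3). On the log2 scale the difference was -0.31 ± 0.06 (standard error), with a limma adjusted p of 0.0093. This is close to the cut-off of 0.3. Its adjusted p stayed at or under 0.0392 in the 6 fits without 1 mouse each, but without control replicate 2, control replicate 3 or *Mef2c* cKO replicate 3 the log2 fold change was -0.28, -0.29 and -0.29 and the gene was no longer called.

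*Cabin1* (chromosome 10, 75108855 to 75227102, minus strand) had 101.0, 119 and 120 CPM in control replicates 1, 2 and 3, and 110, 106 and 108 CPM in *Mef2c* cKO replicates 1, 2 and 3. All 3 *Mef2c* cKO values lay within the range of the controls (log2 fold change -0.06, 95% interval -0.23 to 0.10, limma adjusted p = 0.63). *Mapk7* (chromosome 11, 61302314 to 61307908, minus strand) was the gene with the fewest reads, with 18.3, 24.7 and 23.2 CPM in control replicates 1, 2 and 3, and 24.1, 20.5 and 21.5 CPM in *Mef2c* cKO replicates 1, 2 and 3. Its means were 22.0 and 22.1 CPM, and the log2 fold change of 0.01 had a 95% interval of -0.26 to 0.28 (limma adjusted p = 0.97). Of 14587 tested genes, 96.0% had a larger absolute log2 fold change than *Mapk7*.

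Around these genes, 10 lists of the same pathway held 82 genes, of which 81 were tested and 9 were called, 5 lower and 4 higher. Their share of 11.1% stood beside the 13.2% of all tested genes, and their median log2 fold change was 0.05 beside 0.01. Deacetylases of the other classes did not pass the test. Of 7 other zinc-dependent HDACs limma called 0 (1 at an unadjusted p under 0.05), with log2 fold changes from -0.07 to 0.18. *Hdac3*, the catalytic partner of the class IIa proteins in the NCoR and SMRT complexes, had 138, 147 and 146 CPM in control and 156, 160 and 152 CPM in *Mef2c* cKO replicates 1, 2 and 3 (log2 fold change 0.12, limma adjusted p = 0.18). Of 7 sirtuins limma likewise called 0 (2 at an unadjusted p under 0.05). *Sirt2*, a cytoplasmic deacetylase abundant in myelin, had means of 108 and 128 CPM, and its log2 fold change of 0.25 was under the cut-off (limma adjusted p = 0.027).

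Of 12 corepressors, 1 was called lower and 1 higher. *Bcor*, the BCL6 corepressor, had 47.5, 42.8 and 45.2 CPM in control and 35.9, 36.8 and 35.9 CPM in *Mef2c* cKO replicates 1, 2 and 3 (log2 fold change -0.32, standard error 0.06, limma adjusted p = 0.010). *Sin3b*, a scaffold of the Sin3 complex, had means of 75.0 and 93.3 CPM (log2 fold change 0.31, standard error 0.08, limma adjusted p = 0.027). Both log2 fold changes were just past the cut-off, and with 1 mouse left out *Bcor* was called in 5 and *Sin3b* in 2 of 6 fits. Of 8 MEF2 coactivators limma called 0 (0 at an unadjusted p under 0.05). *Smarca4*, the ATPase of the BAF remodelling complex, had 217 and 221 CPM in control replicates 1 and 3, with no count in replicate 2, and 240, 233 and 221 CPM in *Mef2c* cKO mice (log2 fold change 0.08, limma adjusted p = 0.46).

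Of 17 kinases that phosphorylate class IIa HDACs, the longest of the lists, 4 were called, 3 lower and 1 higher. This was 23.5%, beside 13.2% of all tested genes. *Camk4*, the nuclear calcium/calmodulin kinase, had 259, 274 and 262 CPM in control and 191, 175 and 201 CPM in *Mef2c* cKO replicates 1, 2 and 3 (log2 fold change -0.49, standard error 0.06, limma adjusted p = 9.2e-04). *Camk2g* fell from 540.1 ± 14.3 to 426 ± 38 CPM (SD, n = 3, log2 fold change -0.35, limma adjusted p = 0.011). It was called in 5 of the 6 fits that left out 1 mouse, not in the fit without *Mef2c* cKO replicate 1 (log2 fold change -0.29), nor in the mice of 12 weeks alone (log2 fold change -0.27, limma adjusted p = 0.094). *Camk2d* fell from 91.0 ± 12.0 to 62.6 ± 13.2 CPM (SD, n = 3, log2 fold change -0.55, limma adjusted p = 0.041), and it was called in 2 of the 6 fits that left out 1 mouse. The 4 CaMKII genes did not move alike. *Camk2a*, which had the highest level of the kinase list, differed by -0.02 on the log2 scale (limma adjusted p = 0.95), and *Camk2b* by 0.11 (limma adjusted p = 0.26). *Prkd1*, protein kinase D1, went the other way, from 12.4, 11.7 and 13.0 CPM in control to 22.1, 25.7 and 22.2 CPM in *Mef2c* cKO replicates 1, 2 and 3 (log2 fold change 0.91, standard error 0.09, limma adjusted p = 2.5e-04).

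Of the 14-3-3 proteins, which bind phosphorylated class IIa HDACs, limma called 0 of 7 (0 at an unadjusted p under 0.05). *Ywhag*, with the most reads of this list, had means of 1341 and 1472 CPM (log2 fold change 0.14, limma adjusted p = 0.32). Among the genes of calcineurin, a calcium-activated phosphatase, limma called 0 of 4 tested (2 at an unadjusted p under 0.05), and *Ppp3r2* had no reads in any mouse. *Ppp3r1*, the regulatory subunit, had means of 872 and 1025 CPM (log2 fold change 0.23, limma adjusted p = 0.094).

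In the cascade above ERK5, limma called 0 of 3 genes (0 at an unadjusted p under 0.05), and *Map3k2* had means of 46.1 and 45.7 CPM (limma adjusted p = 0.91). In the p38 list, 1 of 11 genes was called lower and 1 higher. *Map3k5* (ASK1), a kinase at the top of the p38 and JNK cascades, had 99.1, 100.5 and 103 CPM in control and 48.6, 42.3 and 42.7 CPM in *Mef2c* cKO replicates 1, 2 and 3. Its level fell by 1.18 on the log2 scale (standard error 0.07, limma adjusted p = 1.3e-05). *Mapk12*, p38 gamma, had means of 10.6 and 14.4 CPM (log2 fold change 0.44, limma adjusted p = 0.033), and *Mapk11*, p38 beta, differed by 0.08 (limma adjusted p = 0.69). Of 5 other MAP kinases, *Mapk3* (ERK1) was called, with 112, 127 and 128 CPM in control and 194, 147 and 152 CPM in *Mef2c* cKO replicates 1, 2 and 3 (log2 fold change 0.41, limma adjusted p = 0.031). *Mapk3* was called in 2 of the 6 fits that left out 1 mouse, and *Mapk12* also in 2.

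**Figure D5:**
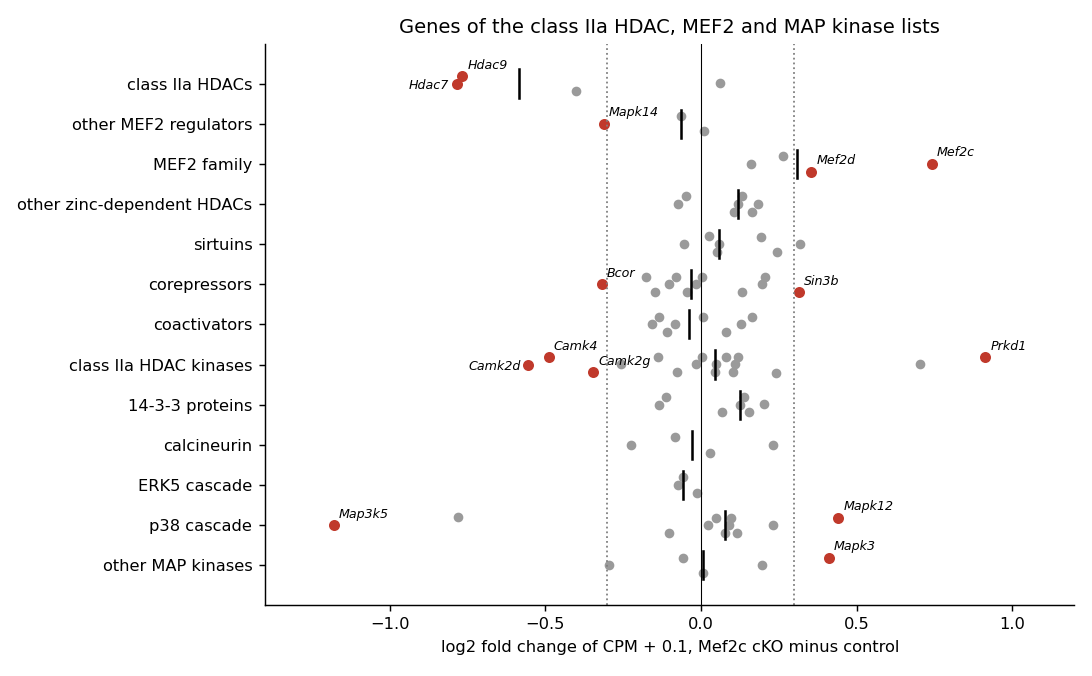
Log2 fold changes of the genes of each list, with the 7 members in the upper lists. Red points passed both cut-offs and are named, grey points did not, black bars are the median of the list, and dotted lines mark 0.3 in both directions. The class IIa list has its median at -0.58, and the medians of the 10 pathway lists lie between -0.06 and 0.13.

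Genes with the profile most like each called member were sought among 10258 genes with a mean of at least 5 CPM, by the root mean square difference of centred log2 values over the 6 mice. Nearest to *Hdac9* were *Man1a2*, a Golgi mannosidase (difference 0.07), *Lrrc8c*, a subunit of volume-regulated anion channels (0.07), and *Sipa1l2* (0.07). Nearest to *Hdac7* were *Chrm3*, the muscarinic M3 receptor (0.07), *Ptprd*, a receptor phosphatase of synapses (0.08), and *Trpm4*, a calcium-activated cation channel (0.08). Nearest to *Mapk14* were *Grik1*, a kainate receptor subunit (0.02), *Grm7*, a metabotropic glutamate receptor (0.03), and *Ece1*, the endothelin-converting enzyme (0.04). These genes were chosen for their likeness, and their own differences between genotypes are therefore no further result.

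Markers of the cell types in this tissue are given here beside all the results above, and their part in those results was not tested. Among the markers with a count in every mouse none was at 0 throughout. *Slc17a7*, a glutamate transporter that defines excitatory cortical neurons, had a mean of 1218 CPM in the 2 control mice with a count and 1241 CPM in the 3 *Mef2c* cKO mice. The summed markers of neurons were 3563 to 3921 CPM in control and 4292 to 4584 CPM in *Mef2c* cKO mice (5 genes with a count in every mouse), without overlap. Those of excitatory pyramidal neurons were 3342 to 3928 and 3390.1 to 4383 CPM (4 genes), and those of inhibitory neurons 610.0 to 696 and 640.1 to 685 CPM (5 genes). Of the 6 inhibitory markers *Pvalb* fell from 60.3 to 34.7 CPM (limma adjusted p = 4.0e-04) and *Sst* rose from 121 to 182 CPM (limma adjusted p = 0.039). Of the excitatory markers *Neurod6* rose from 41.6 to 105 CPM (limma adjusted p = 2.0e-04), *Tbr1* was also called higher, and *Slc17a6* fell from 33.7 to 22.4 CPM (limma adjusted p = 0.030). Astrocyte markers summed to 1324 to 1363 and 1321 to 1484 CPM (6 genes). Of these *Gfap* rose from 59.6 to 155 CPM (limma adjusted p = 4.3e-04), *Aqp4* from 83.8 to 139 CPM (limma adjusted p = 4.2e-05), and *Aldh1l1* fell from 64.0 to 48.6 CPM (limma adjusted p = 0.0077). Oligodendrocyte markers summed to 3105 to 5132 and 5043 to 6470 CPM (6 genes, ratio of means 1.42). All 6 had a higher mean in *Mef2c* cKO mice, with log2 fold changes of 0.41 to 0.64 and unadjusted limma p under 0.05. Of these only *Mobp* was called, from 528 to 814 CPM (limma adjusted p = 0.039). Microglia markers summed to 188 to 209 and 178 to 183 CPM (6 genes, without overlap), and the precursor marker *Cspg4* had 20.9 to 23.1 and 22.7 to 25.0 CPM.

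Markers of neighbouring regions were also summed. Those of the striatum summed to 77.6 to 103 CPM in control and 86.5 to 180 CPM in *Mef2c* cKO mice (4 genes). The called gene among them, the dopamine receptor *Drd1*, had 20.2, 21.4 and 17.7 CPM in control and 69.5, 49.6 and 77.4 CPM in *Mef2c* cKO replicates 1, 2 and 3 (log2 fold change 1.70, limma adjusted p = 1.3e-04), higher in every *Mef2c* cKO mouse. *Drd2*, *Ppp1r1b* and *Adora2a* overlapped between genotypes and were not called. They were above every control in *Mef2c* cKO replicates 1 and 3. In *Mef2c* cKO replicate 2 they were below every control, at 0.776, 34.8 and 1.35 CPM. Markers of the thalamus summed to 21.6 to 22.6 and 26.4 to 29.8 CPM (3 genes, without overlap), and those of the choroid plexus to 8.14 to 29.6 and 9.31 to 10.2 CPM (3 genes). The part of neighbouring regions in the results above was not tested.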

How the data were processed

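The authors sequenced polyA-selected cortical RNA of 3 mice per genotype with a directional library. Reads were aligned to mm9 with TopHat and Bowtie and counted per gene with HTSeq, with versions not given in the sources used here. The authors divided the counts by gene length and depth, and the deposited values are RPKM, in 21759 rows per mouse, of which 92 without a gene name were left out (0.0187% to 0.154% of the summed RPKM).

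Whole-number counts were recovered from each table (Python 3.11.15, numpy 2.4.6) by finding the total at which shared steps belong to whole-number lengths. From 94.2% to 99.9% of the values above 0 got a count. A value that several lengths could explain was given the shortest, provided the others were at least 20 times longer. Values still open were missing. CPM above 0.5 in every mouse of a genotype and at least 2 counts per genotype were required, and log2(CPM + 0.1) was fitted with limma 3.58.1 (R 4.3.3) with a variance trend and Benjamini-Hochberg adjustment. The script steps were tested on simulated data. Over 12748 genes, Pearson's r of log2 CPM was 0.991 to 0.994 within and 0.977 to 0.979 between genotypes. The paper compared *Mef2c* cKO mice with control littermates, but which of these mice shared a litter is not given. Mice of the same replicate number had the same age. Their deviations were not positively correlated, which cannot decide whether they were littermates. The main fit did not pair mice, and the replicate number was used as a block in an alternative. All named genes follow a rule that takes every member, the MEF2 genes, every called gene of each list (or, in a list without any, the gene with the highest mean CPM) and the 3 nearest profiles of each called member. *Camk2a*, *Camk2b*, *Mapk11*, *Ppp3r2* and the markers named were added after their values were seen. The members, lists and tests were chosen with earlier results of these data known. Alternatives were other scalings, pseudocounts, filters, the deposited RPKM, a replicate block, age, and leaving out each mouse. Gene positions and lengths are from gencode on NCBIM37 (mm9), which is not the annotation the authors counted on. *Hdac4*, *Hdac7* and *Mapk7* overlap genes on the other strand by 132, 29 and 89 exonic bases, and whether counting used strand is not given in the sources used here. Motifs and promoters are from RefSeq on GRCm38.p6, and no coordinates were converted. Some further markers are not reported here.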

Additional observations from a re-analysis of the deposited data

How the results depend on the processing

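*Hdac7* and *Hdac9* kept their direction and stayed called in all alternatives based on recovered counts. Both were called in all 6 fits that left out 1 mouse, with log2 fold changes of -0.92 to -0.71 for *Hdac7* and -0.84 to -0.69 for *Hdac9*. *Hdac4* was called at a log2 fold change of -0.44 with upper-quartile scaling, -0.40 with age as a term and -0.49 in the 12-week mice alone. With 1 mouse left out it lay between -0.53 and -0.27 and was called only without *Mef2c* cKO replicate 1. *Mapk14* lay between -0.36 and -0.28 in these 6 fits and was not called without control replicate 2, control replicate 3 or *Mef2c* cKO replicate 3. The number of called members was 3 to 4 in the other alternatives on recovered counts and 2 to 4 with 1 mouse left out. The 9 called pathway genes became 4 in the 12-week mice alone and 4 to 10 with 1 mouse left out, where 4 is the number without control replicate 1. The 1929 genes called over the whole table ranged from 1523 to 1720 with 1 mouse left out.

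On the RPKM as deposited, whose lengths differ between mice, limma called 0 of the 7 members (0 at an unadjusted p under 0.05), 0 of 64 pathway genes (3 at an unadjusted p under 0.05) and 14 genes in all, 0.176% of 7974. The log2 fold changes were then -1.26 for *Hdac7*, -0.92 for *Hdac9* and -1.91 for *Mapk14*, with standard errors of 1.47 to 1.66. Of the genes called on recovered counts, *Bcor* (0.84), *Camk2g* (0.66), *Map3k5* (0.53) and *Mef2d* (-1.09) changed sign. The member *Hdac5*, called in neither fit, also changed sign, from 0.06 to -0.62. The summed class IIa level then differed by -78.2%, in place of -20.1%, and the share of *Hdac5* by 25.4 percentage points, in place of 12.3. The correlation of deviations was -0.16, -0.08 and -0.07 for mice of the same replicate number over 12748 genes. With 3 mice per genotype this cannot decide whether they were littermates. With the number as a replicate block 1567 genes were called, the called members were the same 3, and the limma adjusted p was 9.4e-04 for *Hdac9*, 0.0045 for *Hdac7* and 0.041 for *Mapk14*.

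Single recovered counts can be wrong, and low-count genes such as *Mapk7* carry more counting error. Leaving the counts settled by the shortest length missing was an alternative chosen after seeing the data, and it changed no call among the 7 genes.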
